A study of Drosophila melanogaster with 2 samples.

Results

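Binding of the transcription factor cropped (crp) was described at 9 genes that restrain TOR and insulin signalling in Drosophila melanogaster: Tsc1, gig, Sesn, Nprl2, Nprl3, Iml1, foxo, Thor and REPTOR. All 9 were found among the 13968 protein-coding genes of the annotation, and 6 activators of the same pathways, Tor, Rheb, S6k, Akt, InR and chico, were set beside them. The genes were chosen by their known function after the peak lists had shown peaks at Tsc1, gig and Sesn. The counts of peaks and the signal values at these genes are therefore given as a description, with no test.

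The data are ChIP-seq peak lists from whole embryos of mixed sex, collected between 0 and 16 h, of a transgenic line that stably expresses crp with GFP at its C terminus. Chromatin was sheared by sonication to between 200 and 800 bp and precipitated with an antibody to GFP, so the lists report the tagged protein in a mixture of all embryonic cell types and ages in that range. There is 1 group of 2 biological replicates, numbered 1 and 3, and no second condition. A control experiment is named in the labels and was not analysed here.

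The kinase TOR promotes protein synthesis and growth when nutrients and insulin-like peptides are plentiful. Insulin receptor signalling passes through chico and Akt, and Akt inhibits both the TSC complex, which keeps the small GTPase Rheb inactive, and the transcription factor foxo. Amino acids act through the Rag GTPases, which the GATOR1 complex restrains and the GATOR2 complex promotes. The factor crp belongs to the basic helix-loop-helix family with a leucine zipper and is the fly relative of mammalian AP-4, whose known site is the E-box CAGCTG.

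The sequences of Tsc1, gig and AMPKalpha below are shown because they hold the centre of a peak of the optimal list described further on. Those of REPTOR and Nprl2 are shown because they hold or lack the same hexamer where no such peak was found. Each was read from the RefSeq dm6 genome on the strand of its gene, 5′ to 3′, and capitals mark CAGCTG, which reads the same on both strands. The Tsc1 stretch lies at chr3R:24130228-24130308 on the plus strand and ends just inside the first transcribed bases. The gig stretch lies at chr3L:20129107-20129207 on the plus strand and is centred on the peak summit. AMPKalpha, the catalytic subunit of the energy-sensing kinase AMPK, is shown at chrX:1375436-1375535 on the plus strand. The bases before a transcription start site (TSS) of REPTOR lie at chr3R:24572496-24572595 on the minus strand, and those before the TSS of Nprl2 at chrX:16884366-16884465 on the minus strand.
Tsc1: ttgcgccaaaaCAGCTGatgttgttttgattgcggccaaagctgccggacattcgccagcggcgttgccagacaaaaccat
gig: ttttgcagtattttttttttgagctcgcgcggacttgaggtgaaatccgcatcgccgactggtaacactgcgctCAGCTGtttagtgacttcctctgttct
AMPKalpha: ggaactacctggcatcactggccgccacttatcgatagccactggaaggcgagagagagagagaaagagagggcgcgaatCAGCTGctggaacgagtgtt
REPTOR: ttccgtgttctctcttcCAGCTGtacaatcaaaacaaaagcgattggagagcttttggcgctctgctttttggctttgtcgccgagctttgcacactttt
Nprl2: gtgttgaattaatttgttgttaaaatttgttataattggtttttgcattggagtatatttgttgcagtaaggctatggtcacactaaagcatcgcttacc
The hexamer occurs in the first 4 of these stretches and not in that of Nprl2. In the AMPKalpha stretch it begins 47 bp downstream of the peak summit and so does not lie wholly within 50 bp of it. GC content was 53.1% in the Tsc1 stretch, 47.5% in that of gig, 56.0% in that of AMPKalpha, 46.0% in that of REPTOR and 32.0% in that of Nprl2.

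The lists hold candidates of very unequal strength. Each peak carries a signal value, a measure of enrichment that is the authors' own and whose scale the labels do not state, and a summit, the base of highest enrichment. The optimal list, made of 1122 peaks that passed the irreproducible discovery rate (IDR) procedure, ran from a signal of 61.3 to 770.4 with a median of 110.1. The list from the pooled replicates held 26505 candidates with a median of 23.5, and the lists of replicates 1 and 3 held 30000 each with medians of 12.5 and 14.5. The labels describe the replicate lists as containing background, so a candidate of low signal is not a binding site by itself. The highest pooled signal below the lowest IDR signal was 61.1. The gig peak described below, with a signal of 73.5, had rank 944 in both the IDR and pooled lists. Above that signal no pooled candidate was therefore missing from the IDR list, which there acts as a cut on pooled signal. At the 1108 IDR peaks with a summit in both replicate lists, the pooled signal was close to the sum of the replicate signals, with a median ratio of 0.999. The log2 ratio of replicate 3 to replicate 1 there had a median of -0.16 and an SD of 0.59. That SD is the replicate error against which genes with an IDR peak are read. It comes from IDR peaks only and does not measure the spread at weaker candidates. Read depth is not known from these lists.

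Tsc1, gig and Sesn, 3 of the 9 restraints, had a summit of the IDR list no more than 1000 bp from a TSS, and none of the 6 activators did. Over the genome 1550 genes had such a summit, 11.1% of all protein-coding genes. Of the restraints 7 had any pooled candidate in that window, and among the 7075 genes with one, 21.9% had an IDR summit. The activators had a pooled candidate at 3 of 6, and 50.7% of all protein-coding genes had one. Nothing is read from the difference between the lists of 9 and 6, because the peaks themselves led to the choice of genes. No restraint and no activator had an IDR summit inside the gene body, against 3.67% of all genes.

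**Figure D1:**
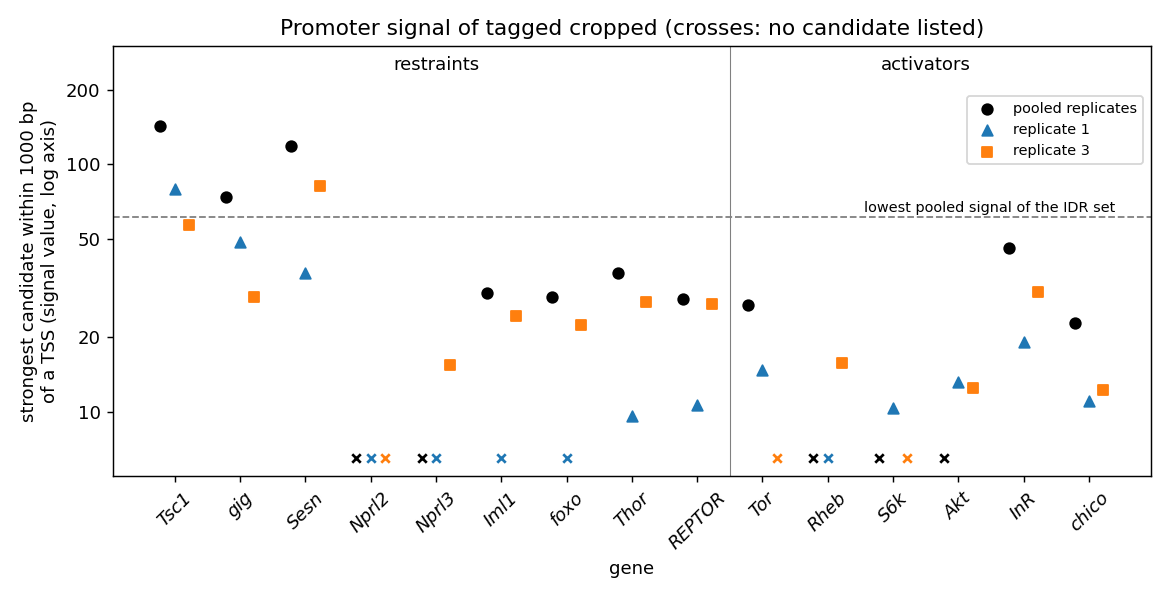
Signal value (log axis) of the strongest candidate within 1000 bp of a TSS for each restraint and activator in the pooled, replicate 1 and replicate 3 lists, with crosses where a list has no candidate and a dashed line at the lowest pooled signal of the IDR list, 61.3. Tsc1, Sesn and gig stand at 142.1, 118.6 and 73.5 in the pooled list, and no other gene plotted exceeds the 45.7 of InR.

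The TSC complex had IDR peaks at the promoters of both of its subunits, that of gig in the lower part of the IDR range. Tsc1 (hamartin, FBgn0026317, chr3R:24130307-24134654, plus strand) is the stabilising subunit. Its IDR peak spanned chr3R:24130056-24130459 with the summit 49 bp upstream of the single TSS. The pooled signal was 142.1, rank 378 of 26505. Replicate 1 gave 79.3 (rank 361) and replicate 3 gave 56.9 (rank 508), each of 30000, so both placed the peak among their strongest. The log2 ratio of replicate 3 to replicate 1 was -0.48, within 1 SD of the median over IDR peaks, and the replicate summits lay 23 bp apart. The CAGCTG began 68 bp upstream of the TSS.

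The Tsc1 peak cannot be credited to Tsc1 alone. GatB, an aminoacyl-tRNA amidotransferase subunit, starts on the opposite strand 52 bp upstream of the Tsc1 TSS, and the summit lay 3 bp from the GatB start. A weaker pooled candidate, in the Tsc1 intron 156 bp downstream of the TSS, had a signal of 55.8, just outside the IDR list, with 31.0 in replicate 1 and 25.2 in replicate 3. A further IDR peak of signal 212.6 lay 133 bp past the 3′ end of Tsc1. It was 44 bp upstream of the start of Sec10, an exocyst subunit, and so was counted for Sec10 and not for Tsc1.

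The other subunit, gigas (gig, FBgn0005198, chr3L:20129181-20139010, plus strand), is the fly Tsc2 and carries the activity that turns Rheb off. Its IDR peak spanned chr3L:20128955-20129358, with the summit 24 bp upstream of the TSS, and gig was the only protein-coding gene with a TSS within 1000 bp. The pooled signal was 73.5 at rank 944, in the lower part of the IDR range. Replicate 1 gave 48.5 (rank 731) and replicate 3 gave 29.2 (rank 1437), so in replicate 3 the peak stood outside the 1122 strongest candidates. The log2 ratio was -0.73, within 1 SD of the median. The CAGCTG began at the TSS base itself. No pooled candidate was found in the gig body.

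Sestrin (Sesn, FBgn0034897, chr2R:23713900-23734846, plus strand) is a stress-induced inhibitor of TOR that acts through AMPK and, as shown in mammals, through the GATOR complexes. Its IDR peak spanned chr2R:23713435-23713838, with the summit 263 bp upstream of the TSS, farther out than at Tsc1 or gig. The pooled signal was 118.6 at rank 504. Replicate 1 gave 36.4 (rank 980) and replicate 3 gave 81.4 (rank 245). The log2 ratio of replicate 3 to replicate 1 was 1.16, above 97.7% of the ratios at IDR peaks, so the replicates differed in strength more here than at most peaks.

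The replicates also differed in position at Sesn. The summit was 263 bp upstream of the TSS in replicate 3 and 148 bp upstream in replicate 1, a shift of 115 bp, against a median shift of 29 bp over IDR peaks. The 101 bp centred on the pooled summit were 29.7% GC and held no CAGCTG. The hexamers nearest the gene began 120 and 78 bp upstream of the TSS, closer to the replicate 1 summit than to that of replicate 3. A second pooled candidate 51 bp upstream of the TSS had a signal of 46.9 and a CAGCTG within 50 bp. It was outside the IDR list and was matched to the same replicate 1 candidate. CG46429, an annotated gene that shares the Sesn start, cannot be told apart from Sesn by these peaks.

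Of the 3 IDR promoter summits at restraints, those of Tsc1 and gig had CAGCTG wholly within 50 bp and that of Sesn did not. Over the genome 521 of 1053 IDR promoter summits had it, or 49.5%. Ordered by pooled signal among those 1053 summits, Tsc1 was number 373, between CG6443 (142.1) and Ide (141.9). Sesn was number 496, between CG7841 (118.6) and PIG-P (118.1). The place of gig was 899, between Vps15 (73.6) and Fhos (73.3). Over all genes with an IDR promoter summit the median was 123.2, with quartiles of 90.7 and 177.5. Tsc1 therefore stood between the median and the third quartile, Sesn just below the median and gig below the first quartile.

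**Figure D2:**
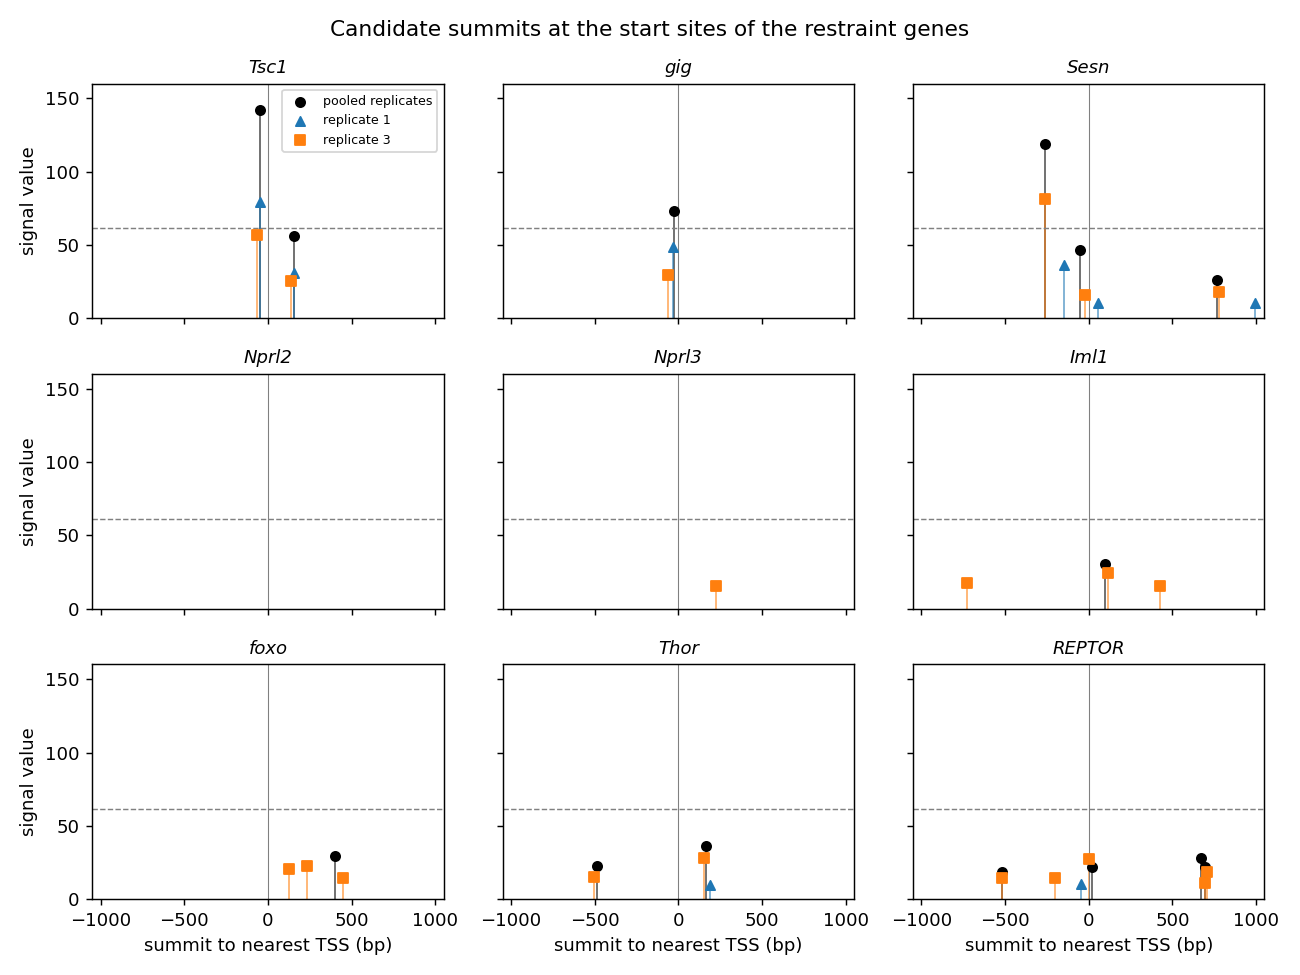
Pooled and replicate candidates within 1000 bp of a TSS of each of the 9 restraints, with the distance of the summit from the nearest TSS in bp (negative upstream) on the x axis and signal value on the y axis, and a dashed line at the lowest pooled signal of the IDR list, 61.3. The strongest pooled candidates of Tsc1 and gig sit 49 and 24 bp upstream of the start, while that of Sesn sits 263 bp upstream with replicate 1 placed nearer the gene.

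GATOR1, which turns off the Rag GTPases when amino acids are scarce, had no IDR peak at any of its 3 subunits. Nprl2 (FBgn0030800, chrX:16882509-16884365, minus strand) had no promoter candidate in any list. Nprl3 (FBgn0036397, chr3L:13999380-14001880, minus strand) had none in the pooled list or in replicate 1, and 15.5 at rank 12089 in replicate 3. Iml1 (FBgn0035227, chr3L:1523414-1534034, minus strand) had 30.3 at rank 5340 in the pooled list, 24.4 at rank 2327 in replicate 3 and no candidate in replicate 1. The highest value at GATOR1 was close to the median of 28.4 over the 7075 genes with a pooled promoter candidate.

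The transcription factors and the translation inhibitor of the list had only weak promoter candidates. Thor (FBgn0261560, chr2L:3478434-3479612, plus strand), the eIF4E-binding protein that blocks cap-dependent translation, had a pooled signal of 36.5 at rank 2757, in the coding exon 163 bp downstream of a TSS. Replicate 3 gave 27.8 (rank 1610) and replicate 1 gave 9.61 (rank 29821), close to the lowest signal of that list. For foxo (FBgn0038197, chr3R:14056945-14087978, plus strand), the factor that insulin signalling holds inactive, the pooled signal was 29.2 at rank 6033 in the 5′ UTR, at 400 bp past the start. The replicate 3 candidate matched to that summit had 14.7 (rank 14302). The strongest replicate 3 candidate of the promoter was a different summit 233 bp downstream, with 22.4 (rank 3224), and replicate 1 had none in the window. REPTOR (FBgn0039209, chr3R:24557368-24582864, minus strand), a factor that TORC1 keeps out of the nucleus, had 28.4 at rank 6652, at a summit 673 bp downstream of a TSS, with 18.6 (rank 6384) matched to it in replicate 3 and nothing in replicate 1. The strongest replicate candidates of REPTOR were other summits, 27.3 (rank 1686) 1 bp upstream of a TSS in replicate 3 and 10.7 (rank 23316) 44 bp upstream in replicate 1. Thor, foxo, REPTOR and Iml1 ranged from 28.4 to 36.5 in the pooled list, all below the 61.3 at which the IDR list begins.

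The strongest promoter candidates of the restraints without an IDR summit were compared between the replicate lists by rank, a missing candidate counting as lowest. Of these 6 genes 5 ranked higher in replicate 3, none ranked higher in replicate 1, and Nprl2 had no candidate in either. For Nprl3, Iml1 and foxo the difference was that replicate 1 listed no candidate at all. Over all 13968 genes 4923 ranked higher in replicate 3, or 35.2%, and 4824 in replicate 1. Among the 5525 genes with a pooled promoter candidate and no IDR summit, 2819 ranked higher in replicate 3, or 51.0%, and 2521 in replicate 1, but Nprl2 and Nprl3 are not among those genes. For the 6 activators replicate 3 ranked higher at 2 and replicate 1 at 4.

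Among the activators the insulin receptor InR had the strongest promoter candidate. It gave 45.7 at rank 1618 in the pooled list, with the summit in an intron 764 bp downstream of a TSS, and the matched candidates had 19.2 (rank 3160) in replicate 1 and 25.5 (rank 2047) in replicate 3. A different replicate 3 summit, upstream of a TSS, was higher, with 30.4 (rank 1325). Tor, the kinase itself, had 27.1 at rank 8001 in the pooled list, 14.7 (rank 8715) in replicate 1 and no candidate in replicate 3. The insulin receptor substrate chico had 22.8 at rank 14532 in the pooled list, with 11.0 in replicate 1 and 12.3 in replicate 3. The pooled summits of Tor and chico lay 755 and 777 bp downstream of a TSS, so none of the activators had a pooled summit at the start itself. Rheb, S6k and Akt had no pooled promoter candidate. Their replicate lists held only low values, 15.8 for Rheb in replicate 3, 10.4 for S6k in replicate 1, and 13.2 and 12.5 for Akt in replicates 1 and 3.

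Of the 6 restraints and activators at least 10000 bp long, foxo, REPTOR and InR carried many weak candidates in their introns and exons, and Sesn, Iml1 and S6k did not. The foxo body, 31034 bp long, held 17 pooled summits, 11 in replicate 1 and 19 in replicate 3, and the highest pooled value was 33.7. That is 5.48 pooled summits per 10 kb, more than in 95.6% of the 1985 genes of at least 10000 bp, whose median was 1.98. REPTOR held 10 pooled summits, or 3.92 per 10 kb, above 85.1% of long genes. Sesn held 4, or 1.91 per 10 kb, and Iml1 held 2, or 1.88 per 10 kb, both near the median. Among the activators InR held 24, or 4.89 per 10 kb, above 92.8% of long genes, with a maximum of 45.7. S6k, the kinase that TOR activates, held 1, or 0.75 per 10 kb, above 15.6% of long genes. A high density of weak candidates was thus found on both sides of the pathway, at foxo and at InR. None of these summits was in the IDR list. Most of those at foxo, REPTOR and InR had a matched candidate in only 1 replicate or in neither. The deposited −log10 q was at most 0.297 in the foxo body and 0.128 in that of REPTOR, and was higher at some InR summits. These densities therefore describe candidates and do not show binding.

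**Figure D3:**
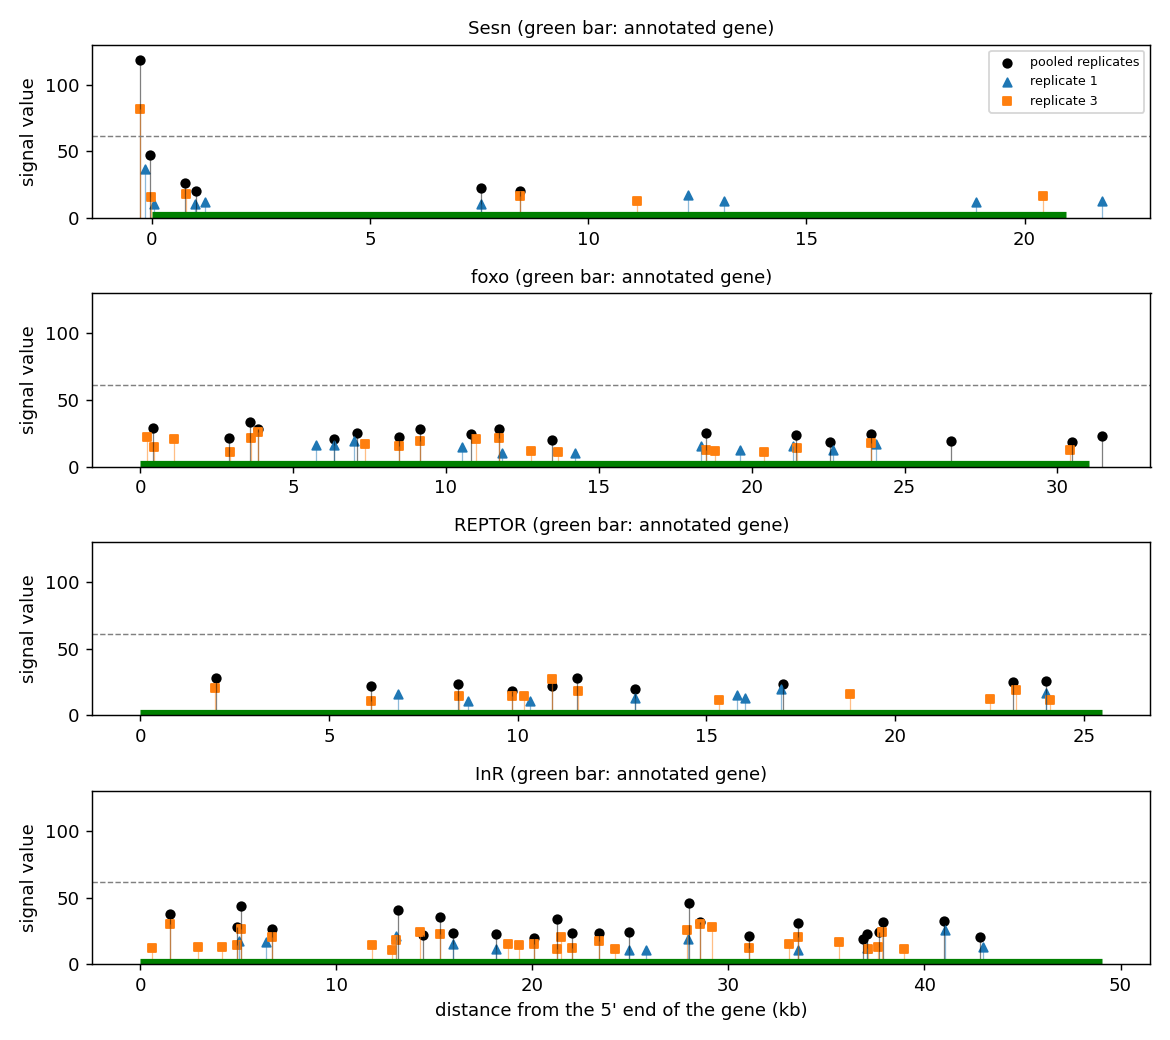
Pooled and replicate candidates along Sesn, foxo, REPTOR and InR (green bar, the annotated gene), with distance from the 5′ end of the gene in kb on the x axis and signal value on the y axis, and a dashed line at the lowest pooled signal of the IDR list, 61.3. The foxo, REPTOR and InR candidates are spread along the gene and stay below the line, with pooled maxima of 33.7, 28.4 and 45.7.

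The presence of CAGCTG near a start went only part of the way with the peaks. In the window from 250 bp before to 50 bp after any TSS, searched on both strands, CAGCTG occurred in 4 of 9 restraints, Tsc1, gig, Sesn and REPTOR, and in 1 of 6 activators, Akt. The share was 22.3% of all genes and 72.8% of the genes with an IDR promoter summit. REPTOR had the hexamer 83 bp before a start and 22 bp after another, and the pooled summit beside the latter had a signal of 21.7. That summit was matched to the strongest replicate 3 candidate of REPTOR (27.3), while the strongest pooled promoter summit of the gene (28.4) had no CAGCTG within 50 bp. The sites of other factors were searched too, and no match overlapped another. The Myc E-box CACGTG and TATCGATA, the site of the factor DREF, occurred in none of the 9 restraints or 6 activators, against 5.29% and 10.2% of all genes. Among the further pathway genes described below, AMPKalpha and RagC-D had TATCGATA within 50 bp of their IDR promoter summits. It can be read in the AMPKalpha stretch above. The IDR promoter summits of alc, chrb, Sin1, mio and Nup44A did not have it. The share over all IDR promoter summits was not computed for TATCGATA. GTAAACA, a Forkhead site of the kind foxo binds, was at Iml1, Thor, Akt and InR, against 11.6% of all genes. These matches describe letters in a window and do not show binding.

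Close divergent neighbours were listed for genes with and without an IDR promoter peak. A TSS on the other strand lay within 500 bp upstream at 3 of 9 restraints, Tsc1, Nprl2 and Nprl3, and at 4 of 6 activators, Tor, Rheb, S6k and Akt. The share over all genes was not computed, so these counts cannot be called high or low. The partner of Nprl2 was the RNA polymerase subunit gene Polr3I at 216 bp, and that of Nprl3 was the chromatin gene upSET at 247 bp. The partner of S6k, kri, lay at 42 bp, that of Tsc1, GatB, at 52 bp, and S6k had no pooled promoter candidate. Any link between such neighbours and peaks was not tested. The nearest such start for gig was 1800 bp away.

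Other genes of the pathways, 15 further restraints and 31 further activators or components, were examined in the same way. An IDR promoter summit was found at 3 of the 15, AMPKalpha, alc and chrb, and at 4 of the 31, Sin1, RagC-D, mio and Nup44A, against 11.1% of all genes. A pooled promoter candidate was present at 9 of the 15 and 20 of the 31, and 21.9% of all genes with one had an IDR summit. The share among the 31 is near the background, and the 15 are few genes listed with these data known. Neither count is a result about its list. AMPKalpha had a pooled signal of 98.5 with the summit 67 bp upstream of its TSS, 51.2 in replicate 1 and 41.1 in replicate 3, and no other gene started within 1000 bp. The AMPK beta subunit gene alc had 136.5, with 88.9 and 47.2 in replicates 1 and 3, at a summit 44 bp upstream of its TSS and 509 bp from the starts of CG8788 and CG44286. A second peak in its window, of 73.8, lay nearer those genes, at 164 bp. AMPK activates the TSC complex and restrains TOR when energy is low. Its gamma subunit gene, SNF4Agamma, had no IDR promoter summit, and its strongest pooled promoter candidate had 33.2. The REDD-family inhibitor charybde (chrb) had promoter peaks of 106.1 and 86.3, with 45.8 and 57.4 in replicates 1 and 3 for the first and 32.7 and 63.3 for the second.

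Some genes that promote TOR had strong peaks. Nup44A, the fly Seh1 of GATOR2, had 304.5 at rank 30, with 179.1 in replicate 1 and 128.4 in replicate 3, at a start region shared with ACC, the acetyl-CoA carboxylase gene. RagC-D, a Rag GTPase, had 277.3 at rank 42, with 148.0 and 129.8, at a peak within 1000 bp of the starts of 2 genes. The GATOR2 gene mio had 151.6, with 69.4 and 78.0, shared with CG15386, CG42371 and daed, and the TORC2 subunit gene Sin1 had 121.7, with 65.6 and 53.1, shared with CG17385. Nup44A and RagC-D exceeded every restraint examined, so strong promoter peaks were not limited to restraints on TOR.

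Grouped by complex, a grouping made after the values were seen, IDR promoter summits stood at 2 of 2 TSC genes, 2 of 3 AMPK genes, 2 of 5 GATOR2 genes and 1 of 2 Rag genes. They stood at 1 of 5 genes of TORC1 and TORC2, and at none of 3 GATOR1, 5 Ragulator or 8 insulin-like peptide genes. With 11.1% of all genes and 21.9% of those with a pooled candidate having such a summit, the zeros in groups this small are near the background. Both TSC genes were listed after their peaks had been seen, and the other groups with a summit are also small. No count here is a result about its complex. Below the IDR list the strongest promoter candidates of the further lists were those of Lamtor3, a Ragulator subunit (51.8), Sec13 of GATOR2 (42.1) and raptor of TORC1 (38.3) among the 31 activators and components. Among the 15 restraints they included melt (47.6) and SNF4Agamma, the AMPK gamma subunit (33.2).

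**Figure D4:**
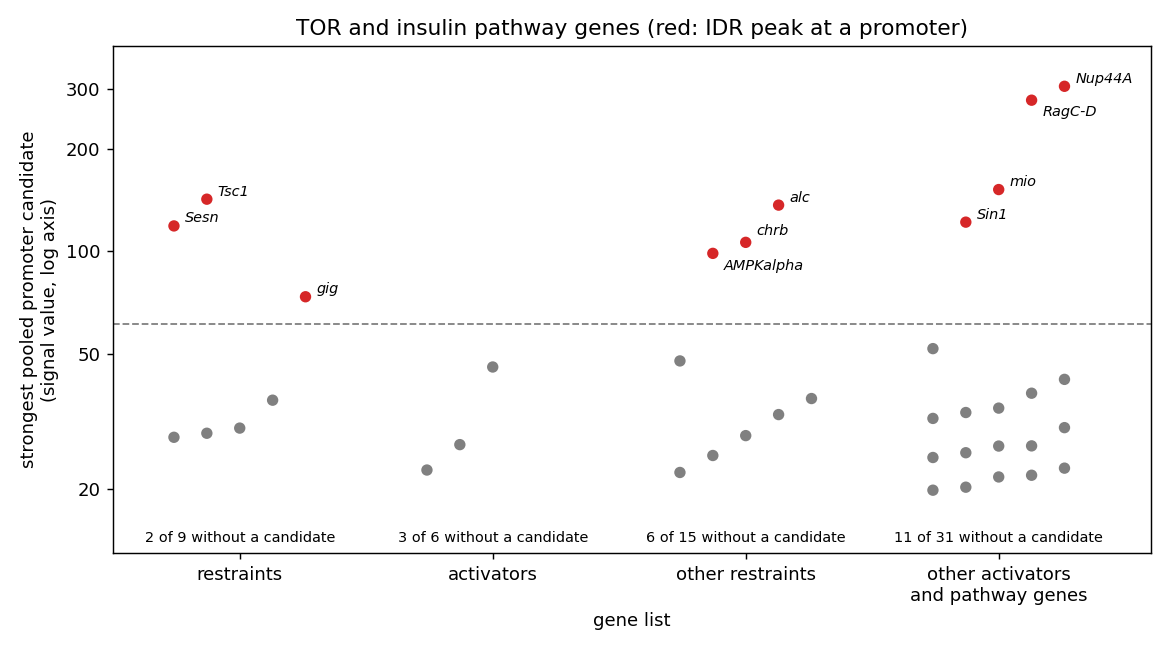
Strongest pooled promoter candidate of each gene, as signal value on a log y axis, in the 4 gene lists on the x axis, with red points for genes with an IDR promoter peak, grey points for the rest, and a dashed line at the lowest IDR signal, 61.3. Red points occur in the restraints and in both lists of further genes and not among the 6 activators, and the highest are Nup44A at 304.5 and RagC-D at 277.3.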

How the data were processed

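Crp-GFP ChIP-seq of whole embryos was used as 4 deposited narrowPeak lists in dm6: 2 replicate candidate lists, a pooled list derived from both replicates and the optimal IDR list. The dm3 lists were not used. The signal of each peak, its −log10 q value and the offset of its summit are the authors' deposited values. The −log10 q values were not used for ranking. Not given in the sources used here are the aligner, the caller, its control and the threshold of the IDR procedure. Read depth is unknown, so no counting interval is given, and precision rests on the 2 replicates.

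Summits were assigned with Python 3.11.15, NumPy 2.4.6 and pandas 2.3.3, and figures drawn with Matplotlib 3.10.9. Gene models were those of Ensembl release 115, in which Tor is listed as mTor. All 61 listed symbols were matched, the list entry Lobe as PRAS40. A promoter summit lay within 1000 bp of any TSS of a protein-coding gene, and every gene in range was credited. Replicate values at IDR peaks, and those called matched, come from the replicate candidate matched to the pooled summit. Other replicate values are those of the strongest candidate in the promoter window, which can be another summit. Positions count the TSS base as 0. Peak assignment was tested on simulated data. Named were all 9 restraints and 6 activators, genes of the wider lists with an IDR promoter summit, the 3 strongest below it in each list, and genes sharing a summit with a restraint, except some that are not reported here. The members and lists were chosen with earlier results of these data known, and no test was made. Alternatives varied the window, TSS choice, crediting, peak threshold, overlap, motif distance and replicate, and 1 was added after the data were seen.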

Additional observations from a re-analysis of the deposited data

How the results depend on the processing

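The count of 3 restraints held with windows of 500 and 2000 bp, the most upstream TSS, the 2000 strongest pooled candidates, the overlap of peak intervals, and replicate 1 alone. It was 2 with the nearest gene only, where the Tsc1 peak went to GatB, and 2 with the stronger 561 IDR peaks, where gig was lost. Leaving out each replicate gave 2 to 3 restraints, and gig was lost without replicate 1. With peaks near the TSS of 1 gene only, an alternative chosen after seeing the data, 1 restraint, gig, was left. The activators stayed at 0 except with the 2000 strongest pooled candidates, where 1, InR, was counted. CAGCTG within 25 bp was found at 1 restraint summit in place of 2. The genome-wide count of 1550 genes became 1030 with the nearest gene only, 907 with the stronger IDR peaks and 385 with peaks near the TSS of 1 gene only. All 17 signal values obtained under windows of 500 and 2000 bp stayed within 1 SD of the log2 replicate ratio, 0.59. That SD is a yardstick taken from IDR peaks and does not measure the effect of a window. REPTOR became 21.7 and Tor, InR and chico had no candidate with 500 bp. Of 17 ranks in single replicates 11 differed by over 1.5 times. The cause of these changes was not tested beyond the construction of each alternative. Depth is unknown, so a missing candidate does not show that crp was absent.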
